A study of Mus musculus with 11 samples.

Results

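The interleukin-1 (IL-1) family genes described here are the ligands Il1a, Il1b and Il18, the inhibitors Il1rn and Il18bp, and the receptor genes Il1r1, Il1rap and Il1r2, chosen by name as the ligands, antagonists and receptors of IL-1 and IL-18. They are 8 of the 36529 genes listed in the count data. RNA was sequenced in 11 samples of BV2, a C57BL/6 mouse microglial line of transformed cells, grown in medium with serum. In one experiment 3 samples, called ApoE4, received nApoE4 1-151, the amino-terminal fragment of apolipoprotein E4 from residue 1 to residue 151, at 25 μg/ml for 5 h, and 3 samples, called ControlA, were its untreated controls. In the other experiment 2 samples, called ApoE3, received nApoE3 1-151, also at 25 μg/ml for 5 h, and 3 samples, called ControlB, were untreated. Both fragments carried a histidine tag and differ in 1 amino acid, a cysteine in nApoE3 and an arginine in nApoE4. The sample labels name a PBS vehicle, while the methods of the study describe conditioned medium for the control cells. Each fragment had its own controls, so fragment and experiment cannot be told apart in any comparison between nApoE4 and nApoE3. The labels do not say whether replicates were separate cultures, and the study speaks only of independent measurements, so p-values measure the spread between these samples, whatever its source.

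IL-1α and IL-1β are cytokines that act through the receptor IL-1R1 together with its accessory protein IL-1RAP, and both drive inflammatory gene expression through MyD88 and NF-kB. The receptor antagonist encoded by Il1rn occupies IL-1R1 without signalling, and IL-1R2 is a decoy receptor that binds IL-1 without signalling. IL-18 is a related cytokine that is neutralized by the binding protein encoded by Il18bp. IL-1β and IL-18 are made as precursors that caspase-1 cleaves in inflammasomes, so an RNA level does not tell how much cytokine is released. In the brain, microglia are a main source of IL-1β.

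The libraries held 39732710 to 44162511 counts on genes in ControlA, 40041282 to 43669539 in ApoE4, 55809688 to 69768666 in ControlB and 61191937 to 63563784 in ApoE3. A count of 3 corresponded to 0.0430 to 0.0755 CPM, the usual scaling of counts to a common library size. The second ControlA sample stood apart from the others of its group, with a mean chi-square per gene of 25.8 and 47.9, against 3.16 to 12.04 for the other pairs of replicates. Without it no call of the 8 genes changed in any comparison. Of 14 microglia and macrophage markers, 10 or 11 had a mean of at least 1 CPM in each group, with Csf1r at 699 to 799 CPM and Cd68 at 724 to 1069 CPM. P2ry12, whose RefSeq span overlaps that of Med12l, was listed at 0 in every sample, and whether this comes from the counting was not tested. Aif1 and Cx3cr1 stayed below 1 CPM in every group mean. Trem2 had group means of 21.5 CPM in ControlA, 2.98 in ApoE4, 0.722 in ControlB and 0.521 in ApoE3. Within ControlA the counts of Trem2 ran from 62 to 2578. C1qa was at 0.821 CPM in ApoE4 and at 1.62 to 2.78 CPM in the other group means. Summed levels of the marker list were 3561 to 3897 CPM in ControlA, 3816 to 3883 in ApoE4, 2682 to 2797 in ControlB and 3273 to 3289 in ApoE3. The neutrophil list, which marks another cell type rich in Il1b and Il1r2, summed to 0.283 to 1.94 CPM over all samples. Its members S100a9, Ly6g and Mpo had at most 3 counts in any sample, S100a8 at most 56 and Elane at most 16. Its member Camp had 3 to 6 counts in ControlA and 17 to 23 in ApoE4, and 3 to 7 in ControlB and 34 to 44 in ApoE3. The part of Camp in the results was not tested. The astrocyte list summed to 1.29 to 1.48 CPM in ControlA and 6.11 to 7.17 in ApoE4, and to 1.07 to 1.28 in ControlB and 4.38 to 4.66 in ApoE3. Of its 5 genes, the glutamate transporter Slc1a2 carried this, with 35 to 52 counts in ControlA and 254 to 281 in ApoE4, while Gfap had at most 4 counts and Aqp4 at most 3 in any sample, and the part of this in the results was not tested. The summed lists of T cells (0.504 to 1.54 CPM), neurons (0.0722 to 0.582) and fibroblasts (0.0669 to 0.390) stayed below 2 CPM in every sample. Those of oligodendrocytes (9.28 to 25.4 CPM) and endothelium (49.6 to 103.9 CPM) were higher in the nApoE3 experiment than in the nApoE4 experiment, and Mog, Mobp and Cldn5 had at most 3 counts in every sample.

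Following treatment with nApoE4 1-151, the RNA of all 3 ligands and of the antagonist Il1rn rose, while the decoy receptor Il1r2 fell. Il1b changed most, followed by Il1a, Il1rn and Il18. In the fit over all genes with edgeR's quasi-likelihood test, 4 of the 8 genes were higher at an adjusted p below 0.05, beside 28.6% of the 14240 genes tested, and 1 was lower, beside 28.6% of genes tested. With nApoE3 1-151, 7 of the 8 were higher, beside 33.1% of the 14817 genes tested, and 0 were lower, beside 34.6%. The median log2 change of the 8 genes was 0.94 with nApoE4 and 1.14 with nApoE3, against 0.0013 and -0.0026 over all genes tested. The changes inside this family ranged from the fall of Il1r2 to the rise of Il1b by more than 100-fold.

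The promoters of the 3 genes on chromosome 2 that changed most, Il1b, Il1a and Il1rn, are shown because their RNA rose with both fragments, by unlike amounts. Each is the 250 bases before a RefSeq transcript start on GRCm38.p6, read 5′ to 3′ on the strand of the gene, with motif matches in capitals. For Il1rn, which has several starts, the windows before the first start and before an internal start are given, and a further window that overlaps a first exon is left out. RefSeq places the outer end of Il1a beyond the start used here.
Il1b, chr2:129371140-129371389, minus strand: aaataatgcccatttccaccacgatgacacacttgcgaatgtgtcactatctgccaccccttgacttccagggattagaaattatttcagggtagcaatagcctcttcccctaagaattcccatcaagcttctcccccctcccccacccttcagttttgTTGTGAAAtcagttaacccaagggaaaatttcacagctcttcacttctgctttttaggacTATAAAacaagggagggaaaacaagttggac
Il1a, chr2:129309973-129310222, minus strand: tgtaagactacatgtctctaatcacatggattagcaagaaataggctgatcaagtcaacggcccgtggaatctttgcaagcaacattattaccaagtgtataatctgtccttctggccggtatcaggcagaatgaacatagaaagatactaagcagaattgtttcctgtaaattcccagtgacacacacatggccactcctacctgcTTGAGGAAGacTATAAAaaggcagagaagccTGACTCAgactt
Il1rn first start, chr2:24336610-24336859, plus strand: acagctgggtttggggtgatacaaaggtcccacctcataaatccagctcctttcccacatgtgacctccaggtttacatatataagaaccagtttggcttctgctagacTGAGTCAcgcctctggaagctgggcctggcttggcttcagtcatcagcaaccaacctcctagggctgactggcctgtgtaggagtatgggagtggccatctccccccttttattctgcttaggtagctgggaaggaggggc
Il1rn internal start, chr2:24345041-24345290, plus strand: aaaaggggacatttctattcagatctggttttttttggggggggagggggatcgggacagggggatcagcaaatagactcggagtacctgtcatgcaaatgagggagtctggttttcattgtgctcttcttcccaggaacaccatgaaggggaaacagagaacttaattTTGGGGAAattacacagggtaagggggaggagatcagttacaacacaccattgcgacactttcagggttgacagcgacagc

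In the Il1b window the capitals are a C/EBP match (TTNNGNAA), 91 to 84 bases before the start, and a TATA box (TATAAA), 31 to 26 bases before it. The Il1a window held an AP-1 match (TGANTCA) 12 to 6 bases before the start, a TATA box 32 to 27 bases before it, and a C/EBP match whose bases overlap a PU.1 match (GAGGAAG) from 43 to 35 bases before it. In the Il1rn windows there was an AP-1 match 141 to 135 bases before the first start and a C/EBP match 81 to 74 bases before the internal start. The NF-kB consensus matched none of these 4 windows, nor did the GAS motif (TTCNNNGAA). Of the 32851 promoter windows of the same length, searched on both strands, 3.90% held the NF-kB consensus, 6.75% AP-1, 36.9% C/EBP, 10.6% PU.1, 7.02% GAS and 12.4% a TATA box. A match is a description of letters, and its absence says only that these letters are not in this window. Over the 11 windows of the 8 genes, the NF-kB consensus was found in 1, before a start of Il1r1, and the GAS motif in 1, before a start of Il1r2.

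Il1b, which encodes IL-1β and lies on chromosome 2 from 129364569 to 129371164 (GRCm38.p6, minus strand), had 47, 46 and 45 counts in the ControlA samples and 9853, 8434 and 9334 in the ApoE4 samples. Scaled by TMM over all 11 samples this was 1.10, 1.03 and 0.964 CPM against 229.8, 203 and 235 CPM. Every treated sample lay more than 100-fold above every control sample. The log2 change with nApoE4 was 7.76 (standard error 0.11, adjusted p = 9.53e-11 from edgeR), a 216-fold rise, at rank 16 of 14240 genes by change. In the nApoE3 experiment the ControlB samples had 1.93, 1.49 and 2.56 CPM and the ApoE3 samples 375 and 344 CPM. The rise there was 7.50 on the log2 scale (standard error 0.079, adjusted p = 3.14e-15 from edgeR), 181-fold and at rank 10 of 14817 genes. In such bulk RNA, more cells with a transcript and more transcript per cell cannot be told apart. Levels followed the order ApoE3, ApoE4, ControlB and ControlA, and no neighbours in this order overlapped.

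Il1a, which encodes IL-1α and lies next to Il1b on chromosome 2 from 129299609 to 129310186 (minus strand), was low in untreated cells. It had 0.399, 0.268 and 0.214 CPM in ControlA, from 17, 12 and 10 counts, and 4.78, 5.97 and 6.75 CPM in ApoE4. In the other experiment it had 0.510, 0.436 and 0.390 CPM in ControlB and 18.5 and 19.6 CPM in ApoE3. Both treated groups stood clear of both control groups, the ApoE3 samples stood clear of the ApoE4 samples, and the control groups overlapped each other. The log2 change was 4.31 with nApoE4 (standard error 0.23, adjusted p = 2.64e-07 from edgeR), a 19.9-fold rise, and 5.39 with nApoE3 (standard error 0.10, adjusted p = 3.12e-13), a 42.0-fold rise.

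Il18, which encodes IL-18 and lies on chromosome 9 from 50554700 to 50581841 (plus strand), was already present in untreated cells and rose by a smaller factor. The ControlA samples had 10.0, 9.50 and 10.6 CPM and the ApoE4 samples 27.7, 32.5 and 30.5 CPM. The ControlB samples had 12.4, 12.3 and 11.8 CPM and the ApoE3 samples 34.8 and 34.2 CPM. The groups did not overlap in either experiment, and the rise was 1.60 on the log2 scale with nApoE4 (standard error 0.083, adjusted p = 1.97e-07 from edgeR), or 3.02-fold. With nApoE3 it was 1.5 (standard error 0.041, adjusted p = 1.02e-11 from edgeR), or 2.82-fold.

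**Figure D1:**
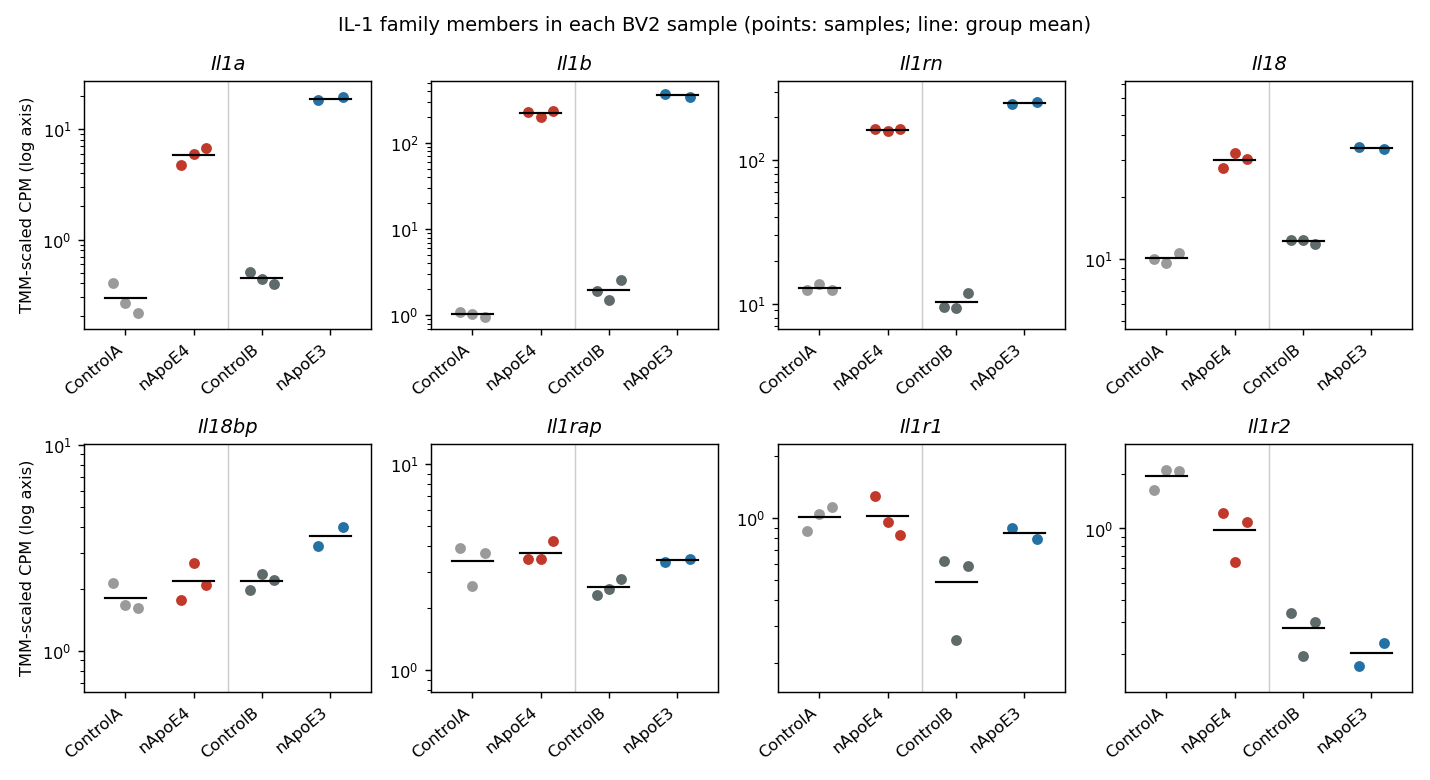
Level of each of the 8 genes in every sample, in TMM-scaled CPM on a log axis with its own range for each gene, with points for samples, lines for group means and the nApoE4 experiment to the left of the grey line. Il1b lies at 0.964 to 2.56 CPM in the 6 control samples and at 203 to 375 CPM in the 5 treated samples, while the points of Il1rap and Il18bp stay within a few CPM of each other.

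Among the inhibitors, Il1rn rose strongly and Il18bp little. Il1rn, which encodes the IL-1 receptor antagonist and lies on chromosome 2 from 24336860 to 24351491 (plus strand), had 12.4, 13.8 and 12.6 CPM in ControlA and 165, 159 and 164 CPM in ApoE4. In the nApoE3 experiment it had 9.56, 9.31 and 11.9 CPM in ControlB and 245 and 254 CPM in ApoE3. The samples of each treated group lay close together and far above their controls. The log2 change was 3.66 with nApoE4 (standard error 0.066, adjusted p = 4.08e-10 from edgeR), a 12.7-fold rise, and 4.61 with nApoE3 (standard error 0.060, adjusted p = 1.68e-14), a 24.4-fold rise.

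Il18bp, on chromosome 7 from 102015074 to 102018232 (minus strand), encodes the soluble protein that neutralizes IL-18. Its levels were 2.14, 1.67 and 1.61 CPM in ControlA and 1.77, 2.67 and 2.09 CPM in ApoE4. These groups overlapped, and the log2 change of 0.28 with nApoE4 did not pass the threshold (95% interval -0.17 to 0.72, adjusted p = 0.260 from edgeR). In ControlB it had 1.97, 2.36 and 2.20 CPM and in ApoE3 3.23 and 3.99 CPM. Here both treated samples lay above the controls, and the rise of 0.72 on the log2 scale passed (standard error 0.14, adjusted p = 5.87e-04 from edgeR), a 1.65-fold change. In the order of the 4 groups the ApoE3 samples stood apart, and the other groups overlapped their neighbours.

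The receptor genes were expressed at a few CPM or less. With nApoE4 only Il1r2 passed the threshold among them, as a fall, and with nApoE3 Il1r1 and Il1rap passed, as rises. Il1r2, the decoy receptor on chromosome 1 from 40084692 to 40125230 (plus strand), had 70, 95 and 98 counts in ControlA and 52, 27 and 43 in ApoE4, or 1.64, 2.12 and 2.1 CPM against 1.21, 0.650 and 1.08 CPM. Every ApoE4 sample lay below every ControlA sample. The gene fell by 0.99 on the log2 scale (standard error 0.24, 95% interval -1.53 to -0.45, adjusted p = 0.00600 from edgeR), 1.98-fold lower. In ControlB it had only 24, 12 and 17 counts, and in ApoE3 10 and 13, or 0.340, 0.194 and 0.302 CPM against 0.172 and 0.230 CPM. These groups overlapped, and a log2 change of -0.48 did not pass the threshold (95% interval -1.33 to 0.37, adjusted p = 0.294 from edgeR), an interval that holds the fall seen with nApoE4.

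Il1r1, the signalling receptor on chromosome 1 from 40222480 to 40316201 (plus strand), had 0.869, 1.05 and 1.14 CPM in ControlA and 1.28, 0.963 and 0.832 CPM in ApoE4, and the groups overlapped. The log2 change with nApoE4 was 0.017 (95% interval -0.49 to 0.52, adjusted p = 0.952 from edgeR), and its sign turned with other ways of scaling. In ControlB it had 0.623, 0.258 and 0.586 CPM, the middle value from 16 counts, and in ApoE3 0.894 and 0.797 CPM. The rise of 0.78 with nApoE3 (standard error 0.31, adjusted p = 0.0451 from edgeR) passed narrowly. It did not pass under 7 of 13 alternatives, where the adjusted p ran from 0.0231 to 0.178 over all 13. Without the second ControlB sample it was 0.47 (adjusted p = 0.11), without the first ApoE3 sample 0.69 (adjusted p = 0.178) and without the second ApoE3 sample 0.86 (adjusted p = 0.0911).

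Il1rap, on chromosome 16 from 26581509 to 26730128 (plus strand), encodes the accessory protein shared by several receptors of the family. It had 3.92, 2.57 and 3.71 CPM in ControlA and 3.47, 3.47 and 4.26 CPM in ApoE4, and the groups overlapped. Its log2 change with nApoE4 was 0.14 (95% interval -0.26 to 0.54, adjusted p = 0.526 from edgeR), and -0.033 without the second ControlA sample. In ControlB it had 2.32, 2.47 and 2.79 CPM and in ApoE3 3.37 and 3.47 CPM. Both treated samples lay above their controls, and the rise of 0.43 passed (standard error 0.13, adjusted p = 0.00908 from edgeR), but not without the second ApoE3 sample (0.41, adjusted p = 0.0528). In the order of the 4 group means the neighbours of Il1rap overlapped throughout.

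The change with each fragment was compared by testing the nApoE4 change minus the nApoE3 change over the 11 samples. A negative value means a smaller rise, or a larger fall, with nApoE4. Of the 8 genes 0 were higher, beside 14.4% of the 15287 genes tested, and 2 were lower, beside 13.9%. Il1rn differed by -0.95 on the log2 scale (standard error 0.11, 95% interval -1.20 to -0.71, adjusted p = 4.36e-05 from edgeR), and passed under all 18 alternatives. Il1a differed by -1.09 (standard error 0.32, 95% interval -1.78 to -0.40, adjusted p = 0.0219 from edgeR). That call was lost without the first ControlA sample (-0.81, adjusted p = 0.126) and without the second ApoE3 sample (-1.05, adjusted p = 0.0521). Both rises were smaller with nApoE4 than with nApoE3, each against its own controls.

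The difference between fragments did not pass for the other 6 genes. It was 0.25 for Il1b (95% interval -0.24 to 0.73, adjusted p = 0.463 from edgeR) and 0.087 for Il18, with a narrower interval (-0.12 to 0.29, adjusted p = 0.550). Intervals that hold a 2-fold difference were those of Il18bp (-0.46, -1.01 to 0.090, adjusted p = 0.206), Il1r1 (-0.77, -1.69 to 0.15, adjusted p = 0.205) and Il1r2 (-0.52, -1.53 to 0.49, adjusted p = 0.454). For Il1rap the difference was -0.30 (95% interval -0.80 to 0.19, adjusted p = 0.368 from edgeR).

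**Figure D2:**
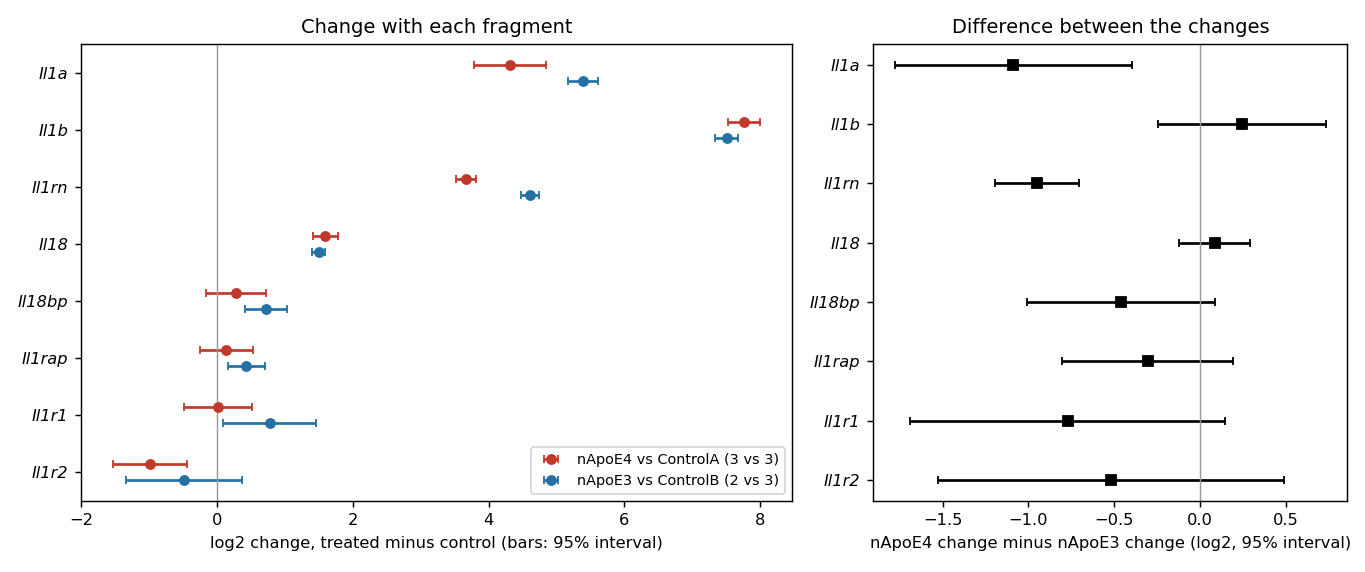
Left, log2 change of each gene in treated minus control samples with nApoE4 (red, 3 against 3 samples) and nApoE3 (blue, 2 against 3 samples); right, the nApoE4 change minus the nApoE3 change on the log2 scale, with bars for 95% intervals from edgeR in both panels. The ligands and Il1rn lie to the right of 0 for both fragments, and in the right panel only the intervals of Il1a and Il1rn leave out 0.

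Between the untreated cells of the experiments 6 of the 8 genes were called different, near the share over all genes tested (69.3%). In ControlB against ControlA, 2 of the 8 were higher, beside 34.4% of the 14249 genes tested, and 4 were lower, beside 34.9%. Il1b was higher in ControlB by 0.93 (adjusted p = 0.00539 from edgeR) and Il18 by 0.26 (adjusted p = 0.00722) on the log2 scale. Lower in ControlB were Il1r2 by 7.02-fold (log2 difference -2.81, adjusted p = 1.60e-05 from edgeR), Il1r1 (-1.07, adjusted p = 0.0143), Il1rap (-0.45, adjusted p = 0.0493) and Il1rn (-0.35, adjusted p = 0.0163). For Il1r2 this difference between untreated cells was larger than the change with either fragment, and both groups of the nApoE4 experiment lay above both groups of the nApoE3 experiment. Without 1 or another sample the call was lost for Il1rap (adjusted p up to 0.172) and Il1rn (adjusted p up to 0.0737), and with upper-quartile factors for Il18 (adjusted p = 0.0585).

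Levels of different genes were set side by side as CPM per kilobase of exon. In untreated cells Il18 led, with a mean of 9.74 in ControlA and 11.8 in ControlB, followed by Il1rn with 2.33 and 1.85. In treated cells Il1b led, with 117 in ApoE4 and 189 in ApoE3, followed by Il1rn (29.4 and 45.1), Il18 (29.3 and 33.5), Il1a (2.96 and 9.65) and Il18bp (0.720 and 1.19). The 3 receptor genes took the lowest places in treated cells, from 0.105 to 0.515 CPM per kilobase. With the length of the longest transcript in place of all exons, these first 2 places in untreated cells and the first 5 in treated cells had the same order.

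**Figure D3:**
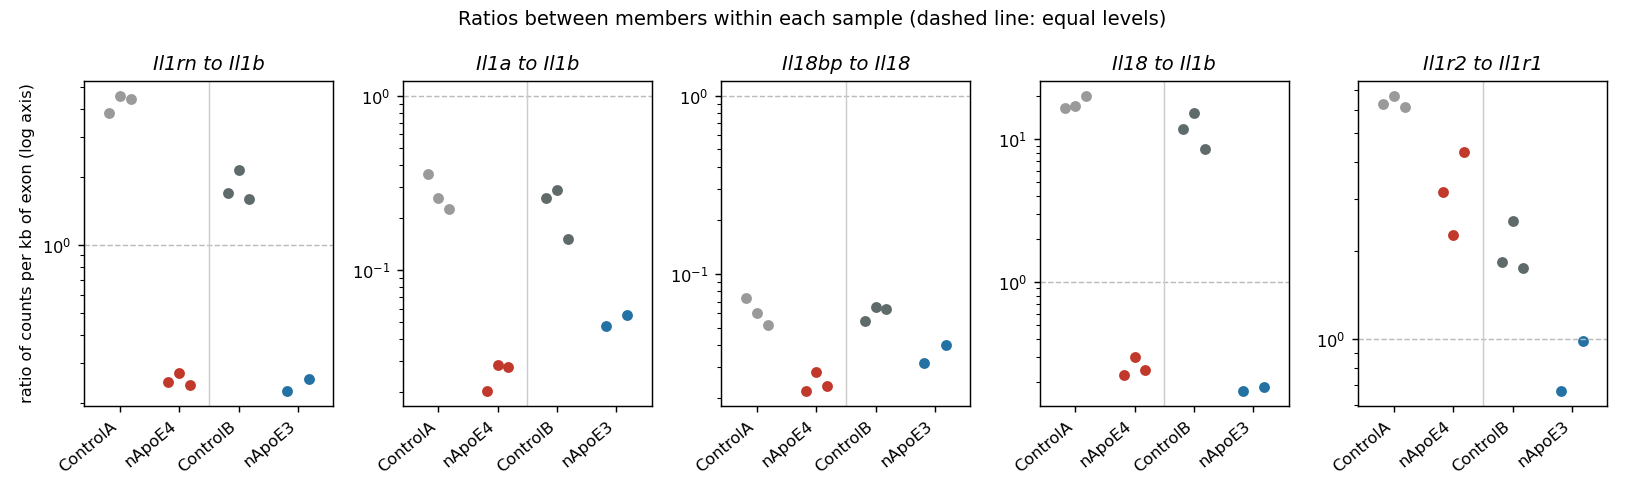
Ratio between pairs of genes within each sample, as counts per kilobase of exon on a log axis with its own range for each pair, with a dashed line at equal levels and the nApoE4 experiment to the left of the grey line. Il1rn to Il1b falls from 1.60 to 4.58 in the control samples to 0.225 to 0.271 in the treated samples, across the line of equal levels.

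Ratios within a sample do not depend on how the libraries are scaled. Il1rn was above its agonist Il1b in every control sample, at 3.83, 4.58 and 4.44 in ControlA and 1.71, 2.15 and 1.60 in ControlB. In treated samples the ratio was 0.248, 0.271 and 0.240 with nApoE4 and 0.225 and 0.254 with nApoE3. Antagonist RNA per kilobase thus went from more than that of Il1b to 0.253 and 0.239 of it (means on the log scale), 16.9-fold lower with nApoE4 and 7.53-fold lower with nApoE3. With the longest transcript as the length, the treated ratios were 0.402 and 0.381 and the control ratios 6.79 and 2.87, and the fold changes were as before. The controls of the experiments did not overlap in this ratio, whereas the treated groups did. Il1a to Il1b went from a mean of 0.274 to 0.0252 with nApoE4 and from 0.223 to 0.0512 with nApoE3. The ratio of Il18 to Il1b went from 17.8 to 0.251 and from 11.5 to 0.178, so the more abundant of these cytokine RNAs was Il18 in untreated and Il1b in treated cells.

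The binding protein also fell against its ligand. Il18bp to Il18 went from 0.0612 to 0.0244 with nApoE4 and from 0.0610 to 0.0355 with nApoE3. Il1r2 to Il1r1, the decoy against the signalling receptor, went from 6.37 to 3.14 with nApoE4 and from 2.01 to 0.812 with nApoE3, the latter from few counts. Treated and control samples did not overlap in any of the 5 ratios in either experiment. How often other pairs of genes do not overlap was not computed. Il1rn, Il1a and Il18 were each set against Il1b, so these ratios share its rise and are not separate observations. The two-sided exact permutation test gave p = 0.1 for each of the 10 tests (adjusted p = 0.1), which is the smallest value that 3 against 3 samples or 2 against 3 samples allow, so no ratio could pass 0.05.

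Antisense genes share bases with several of these genes, and it is not given whether reads were counted by strand. Il1bos, a noncoding gene opposite Il1b, shares 25 exon bases with it, 1.31% of the exon bases of Il1b. It had 11, 7 and 6 counts in ControlA, 65, 53 and 56 in ApoE4, 3, 4 and 4 in ControlB, and 98 and 93 in ApoE3. The rise of Il1bos was 2.95 with nApoE4 (standard error 0.28, adjusted p = 1.28e-05 from edgeR) and 4.78 with nApoE3 (standard error 0.28, adjusted p = 1.28e-08). Its treated samples lay above their controls in both experiments, with group means of 1.4 CPM in ApoE4 and 1.67 CPM in ApoE3. Gm14023 shares 222 bases with Il1a, 11.3% of its exon bases, and had 2 to 7 counts in ControlA, 80 to 81 in ApoE4, 5 to 13 in ControlB and 226 and 261 in ApoE3. This gene was chosen after its values were seen. Without strand, reads of such pairs cannot be told apart, and reads that fell on both genes would be among the 3.24 to 3.56% of tallied reads set aside as ambiguous. Overlaps of Il18bp with Numa1 (2.64% of its exon bases) and of Il1rap with Gm20319 (4.86%) covered few bases. Gm20319 had at most 2 counts, whereas Numa1 had 6108 to 17393, against at most 225 for Il18bp, and fell with both fragments (log2 changes -0.52 and -0.81), and its part in the Il18bp values was not tested. Il18 lies across the RefSeq spans of Bco2 and Tex12, and shared no exon base with another gene in the annotation used for lengths.

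The other ligands and receptors of the family were a list of 13 genes, all of them listed, 4 of the IL-36 genes under their older Il1f names. With nApoE4 5 of them were tested, 2 higher and 2 lower (28.6% of all genes tested in either direction), with a median log2 change of 0.18. With nApoE3 8 were tested, 3 higher and 1 lower (33.1% and 34.6% of all genes tested), with a median of 0.38. Il1rl1, which encodes the receptor of IL-33, fell from 42.1 ± 1.49 to 14.2 ± 0.466 CPM with nApoE4 (SD, n = 3 each) and from 44.8 ± 1.16 (SD, n = 3) to 20.9 ± 0.543 CPM with nApoE3 (SD, n = 2). These are log2 changes of -1.56 (adjusted p = 3.29e-08 from edgeR) and -1.11 (adjusted p = 1.20e-10). Il33, its ligand, rose by 1.11 with nApoE4 (adjusted p = 0.0162 from edgeR) and by 0.86 with nApoE3 (adjusted p = 0.0250), at group means of 0.329 to 1.15 CPM. Il1rl2, the receptor of the IL-36 cytokines, rose by 0.84 with nApoE4 (adjusted p = 0.00165 from edgeR), from 1.12 to 1.99 CPM, while its change of 0.48 with nApoE3 did not pass (95% interval -0.20 to 1.16, adjusted p = 0.196).

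Il1f9, the mouse gene of an IL-36 cytokine, had 0, 1 and 1 counts in ControlB and 77 and 122 in ApoE3, at least 36.2-fold higher against a floor of 3 counts per library. In the nApoE4 experiment it had 0, 0 and 1 counts in ControlA and 19, 10 and 7 in ApoE4, at least 4.27-fold higher by the same floor. Il1f9 was thus at or near 0 in untreated cells and detected in every treated sample. Il18rap, which encodes the accessory chain of the IL-18 receptor, had group means of 9.04, 10.2, 2.76 and 2.58 CPM in ControlA, ApoE4, ControlB and ApoE3. Il18r1, the chain that binds IL-18, had at most 8 counts in any sample.

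Genes of the maturation and release of IL-1β and IL-18 were divided in direction. With nApoE4 13 of the 15 were tested, 6 higher and 6 lower beside 28.6% of all genes each way, with a median log2 change of 0.12. With nApoE3 14 were tested, 6 higher beside 33.1% of all genes and 4 lower beside 34.6%, with a median of 0.25. Nlrp3, the sensor of the best known inflammasome, rose from 48.6 to 597 CPM with nApoE4 (log2 change 3.62, adjusted p = 4.23e-10 from edgeR) and from 35.6 to 525 CPM with nApoE3 (3.88, adjusted p = 1.93e-15). Casp4, a caspase of the noncanonical inflammasome, rose by 3.03 and 3.07. P2rx7, the ATP receptor that triggers NLRP3, fell with both fragments (log2 changes -0.91 and -0.75), as did Nlrp1b (-0.83 and -1.05). Pycard, the adaptor of the NLRP3 inflammasome, had at most 13 counts in any sample, and Txnip was listed at 0 in all 11. RefSeq has a noncoding gene across the span of Txnip, and the cause of its 0 was not tested.

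Of 40 genes of signalling downstream of the receptor, 39 were tested. With nApoE4 21 were higher and 9 lower, against 28.6% of all genes each way, with a median log2 change of 0.41. With nApoE3 26 were higher and 10 lower, against 33.1% and 34.6% of all genes, with a median of 0.32. The largest rises with nApoE4 were those of Nfkbiz (4.02, adjusted p = 5.90e-10 from edgeR) and Nfkbie (3.88, adjusted p = 4.08e-10), both encoding proteins of the IκB family. With nApoE3 they were those of Peli3 (4.34, adjusted p = 3.90e-07 from edgeR) and Tnfaip3 (4.07, adjusted p = 2.23e-13). Peli3 encodes a ubiquitin ligase of the Pellino family, and Tnfaip3 the inhibitor of NF-kB signalling also called A20. Peli3 was near the floor in ControlB, with means of 0.0474 CPM there and 1.01 CPM in ApoE3. All of these genes rose past the threshold with both fragments. Peli3 rose by 3.53 and Tnfaip3 by 3.71 with nApoE4, and Nfkbiz by 3.75 and Nfkbie by 3.13 with nApoE3. Fos, a subunit of AP-1, fell by 2.33 with nApoE4 (adjusted p = 1.07e-07 from edgeR) and by 1.29 with nApoE3 (adjusted p = 6.08e-08). Jun, another subunit of AP-1, which is outside the rule for named genes and was chosen after its values were seen, changed by -0.89 with nApoE4 (adjusted p = 6.26e-07 from edgeR) and by 0.71 with nApoE3 (adjusted p = 1.62e-09), and the difference of -1.61 passed (adjusted p = 7.60e-09). Map2k6, a kinase upstream of p38, changed by -1.44 with nApoE4 and -1.79 with nApoE3, both past the threshold. Peli2, another Pellino ligase, changed by -0.88 with nApoE4 and -1.42 with nApoE3, both past the threshold. Its difference between fragments did not pass (0.53, adjusted p = 0.289 from edgeR). Levels of Peli2 were low, with means of 0.701 CPM in ControlB and 0.260 CPM in ApoE3. As background, most of these products also act in Toll-like receptor signalling.

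**Figure D4:**
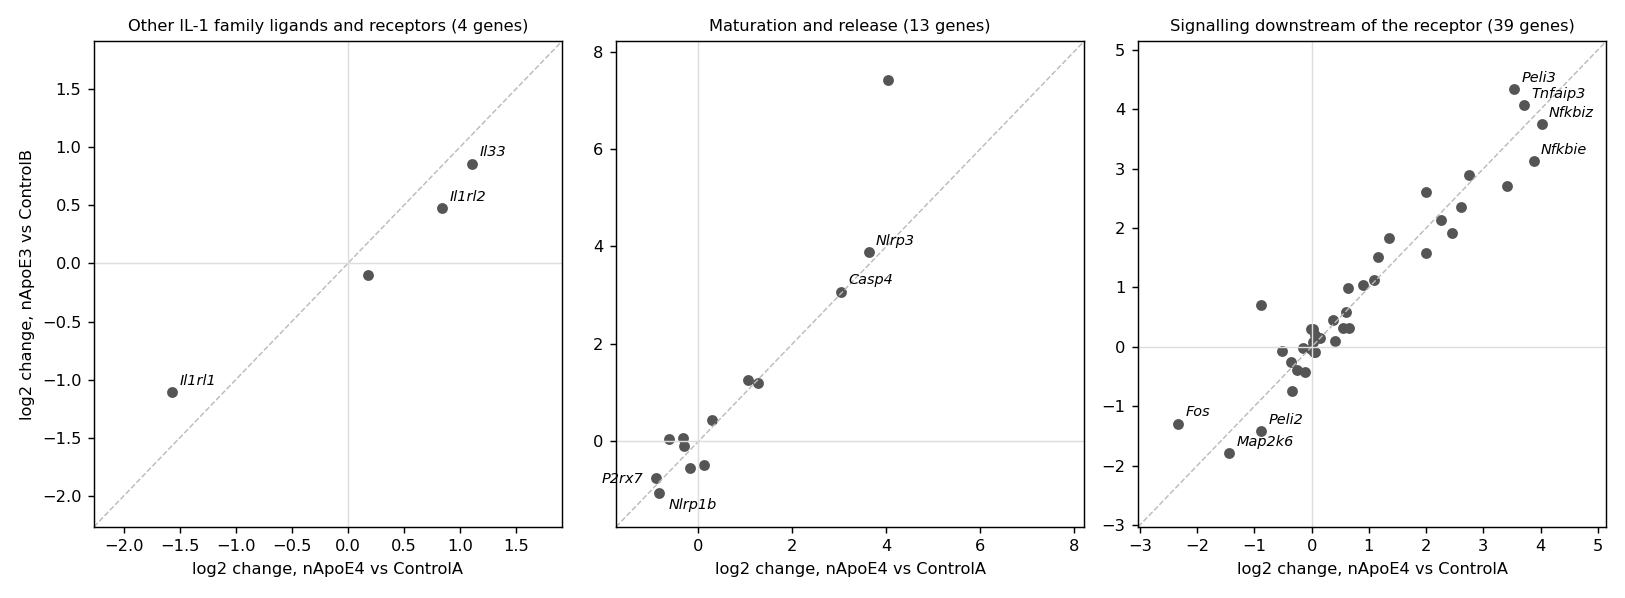
Log2 change with nApoE4 (horizontal) against log2 change with nApoE3 (vertical) for the genes of 3 lists tested in both experiments, 4 other IL-1 family genes, 13 genes of maturation and release and 39 of signalling, with a dashed line at equal changes. Il1rl1 is in the lower left of its panel and Nlrp3, at 3.62 and 3.88, near the line of equal changes, while the unlabelled point at the top of the middle panel is Mefv, with at most 21 counts in any sample.

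Profiles over the 11 samples were compared by Pearson's r of log2 CPM with 15279 genes, as a description in which the points share their libraries. For a gene with a large rise, such as Il1b, other genes that rose in both experiments can reach a high r by that rise alone. How many genes came near the values below was not computed. Most like Il1b were Parp9 (r = 0.999), Saa3 (0.999) and Gpr84 (0.998), and most like Il1a were Csf3 (0.996), Mdm2 (0.995) and Oas1a (0.994). Il1rn was closest to Tank (0.999), Hdc (0.999) and Trafd1 (0.998), and Il18 to Slc7a11 (0.997), Psd (0.996) and Ntng2 (0.996). For Il1r2, they were Csgalnact2 (0.986), Fam169a (0.982) and Qars (0.979). Coefficients were lower for Il18bp, with 1700022H01Rik (0.933), Loxl4 (0.930) and Ltbp2 (0.928), for Il1rap, with Slc8a3 (0.924), Myl4 (0.911) and Tiam1 (0.911), and for Il1r1, with LOC108168146 (0.930), Tuba8 (0.926) and Cnksr1 (0.914).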

How the data were processed

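The authors sequenced single-end 75 bp reads of BV2 RNA, trimmed them with Trim Galore 0.5.0, checked them with FastQC 0.11.8, mapped them to GRCm38.p6 with HISAT2 2.1.0 and deposited, for each of the 11 samples, the unnormalized read counts that HTSeq 0.11.0 gave for each gene symbol. The annotation release, strand setting and overlap mode are not given in the sources used here. Of all tallied reads, unaligned ones included, 76.0 to 77.7% were counted on genes, and tallies of reads not on a gene stayed out of library sizes. Groups and replicate numbers came from the sample labels.

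All genes were fitted with edgeR 4.0.16 in R 4.3.3 (filterByExpr, TMM normalization, quasi-likelihood F test, Benjamini-Hochberg adjustment over all genes tested, calls at an adjusted p under 0.05). Treated samples were set against the controls of the same experiment, and the difference between fragments was tested over 11 samples with 4 group means. The study used DESeq2, which is an alternative here (1.42.0), beside other scalings, filters, a replicate block and leaving out each sample. Standard errors were taken as |log2 change|/√F, and 95% intervals follow from them. CPM values are TMM-scaled over all 11 samples. Lengths are exon unions of GENCODE M21, with the longest basic transcript as an alternative chosen after seeing the data. Ratios had 0.5 added to each count and were tested with a two-sided exact permutation test, adjusted over 10 tests. A floor of 3 counts per library was used for lower bounds, which cover counting error only. Fits were tested on simulated data. Promoters and gene positions are from RefSeq on GRCm38.p6, where 8 of 8 genes matched.

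The 8 genes, the pathway and marker lists and the rule for named genes were chosen with earlier results of these data known. Named from each pathway list were, per fragment, the 2 genes with the largest rise and the 2 with the largest fall among genes past the threshold whose highest group mean reached 1 CPM, and a gene opposite a member by its name. For likeness, the 3 genes with the highest correlation were named.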

Additional observations from a re-analysis of the deposited data

Results flagged for a closer look

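The following genes changed by a different amount with nApoE4 than with nApoE3, by the interaction test of edgeR over 11 samples, given as the nApoE4 change minus the nApoE3 change on the log2 scale. The value was -1.09 for Il1a (adjusted p = 0.0219) and -0.95 for Il1rn (adjusted p = 4.36e-05), whose rises were smaller with nApoE4. Without the first ControlA sample the Il1a value was -0.81 (adjusted p = 0.126 from edgeR) and without the second ApoE3 sample -1.05 (adjusted p = 0.0521), neither past the threshold, whereas Il1rn passed under all 18 alternatives. The antisense gene Il1bos differed by -1.83 (adjusted p = 0.00697 from edgeR), in the same direction as Il1a and Il1rn, while Il1b itself differed by 0.25 and did not pass. The Il1bos value rests on ControlB samples with 3, 4 and 4 counts, at or next to the floor of 3 counts. Its treated means were 1.4 CPM in ApoE4 and 1.67 CPM in ApoE3. Among the pathway genes named above, Il1rl1 differed by -0.47 (adjusted p = 3.56e-04), a larger fall with nApoE4, and Fos by -1.05 (adjusted p = 3.50e-04), likewise a larger fall. Treated means of Fos were close, at 5.63 CPM in ApoE4 and 5.41 CPM in ApoE3. Its untreated means were further apart, at 28.4 CPM in ControlA and 13.2 CPM in ControlB. Nlrp3 differed by -0.26 (adjusted p = 0.0237), a smaller rise with nApoE4. Its treated mean was nevertheless higher in ApoE4, at 597 CPM against 525 CPM in ApoE3. The untreated means of Nlrp3 were 48.6 CPM in ControlA and 35.6 CPM in ControlB. Larger rises with nApoE4 were those of Nfkbie (0.74, adjusted p = 0.00309) and Nfkbiz (0.26, adjusted p = 0.0470). For Nfkbie, as for Fos, the treated means were close, at 63.7 CPM in ApoE4 and 62.7 CPM in ApoE3. Its untreated means were 4.35 CPM in ControlA and 7.20 CPM in ControlB. In all of these differences, fragment and experiment cannot be told apart. The group sizes of 2 and 3 samples do not allow a test for a single sample that lies apart.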

How the results depend on the processing

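With nApoE4, 106 of 112 alternative values of the 8 genes kept their direction and side of the threshold, and the same number of genes, 5, passed under all 14 alternatives. The exceptions were signs of changes that did not pass: Il1r1 was -0.033 with upper-quartile factors, -0.073 on library size alone and -0.0030 with a filter of at least 1 count, and between -0.18 and 0.15 when 1 sample was left out, while Il1rap was between -0.033 and 0.25. With nApoE3, 96 of 104 kept them, and 5 to 7 genes passed, the 8 lost calls being 7 of Il1r1 and 1 of Il1rap. For the difference between fragments 141 of 144 kept them, the 3 lost being of Il1a, and 1 or 2 genes passed when 1 sample was left out. Il1rn passed in all 18, at -1.07 to -0.89. Between the controls 102 of 112 kept them.

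The replicate numbers did not pair samples (correlation of deviations between -0.148 and -0.0117 over 5 pairs), and 0 of the 3 ApoE4 samples correlated best with the ControlA sample of its own number. With a replicate block 1 gene passed in the difference, in place of 2 (Il1a -1.01, adjusted p = 0.115 from edgeR), and 2307 genes over all, in place of 4331. No other member's call changed with the block in the comparisons of each fragment with its controls, and between controls that of Il1rap was lost (adjusted p = 0.0572).

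On library size alone the median of all genes shifted by -0.13 with nApoE3 and -0.090 with nApoE4, and the share of higher among called genes was 34.6%, in place of 48.9%, and 39.9%, in place of 49.9%. Between controls, upper-quartile factors shifted the median by -0.10. Leaving out any 1 sample, the log2 difference in the Il1rn to Il1b ratio stayed between -4.16 and -4.03 with nApoE4 and between -3.0 and -2.79 with nApoE3. Of 32 group levels in CPM, 6 moved by more than the spread between replicates on library size alone, all in ApoE3. Counts below 100 limit Il1r1 and Il1r2 in all samples, Il1a in all control samples, Il1b in ControlA and 1 ControlB sample, and Il18bp in ControlA and part of ApoE4.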
